A study of Mus musculus with 9 samples.

Results

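Genes that mark 2 rare epithelial cell types of the nose were measured by RNA sequencing in the main olfactory epithelium (MOE), the tuft cell genes Trpm5, Pou2f3, Chat, Avil and Il25, and the ionocyte genes Ascl3, Foxi1 and Cftr. They were chosen by name as known genes of these cells and not by their values here, though earlier results of these data were known. They are 8 of the 24421 genes with raw counts. All 8 passed the filter on low counts, among 19775 genes that were tested. The tissue came from mice at postnatal day 14, labelled C57BL/6 (the study describes its lines in general as on mixed C57BL/6J and 129 backgrounds), that were wild-type (WT, 3 libraries), heterozygous (het, TAAR enhancer 2 +/-, 3 libraries) or homozygous (homo, TAAR enhancer 2 -/-, 3 libraries) for a deletion of TAAR enhancer 2, made by CRISPR-Cas9 genome editing. TAAR enhancer 2 is a regulatory element in the Taar gene cluster that acts on olfactory trace amine-associated receptor genes. The deletion was studied in 1 established mouse line, the genotypes were littermates, and mice of either sex were used without sex being given per library. RNA came from the whole tissue, so that fewer cells of a type and less RNA per cell cannot be told apart.

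Tuft cells, which are among the microvillous cells of the nose, are chemosensory epithelial cells that carry a brush of microvilli and borrow parts of the taste transduction cascade. The transcription factor Pou2f3 is required to make them, the cation channel Trpm5 is the last step of their taste-like cascade, and the acetylcholine and interleukin-25 they release act on neighbouring cells and on immune cells. Ionocytes move ions and acid across an epithelium, depend on the forkhead factor Foxi1, and carry the chloride channel Cftr together with a plasma membrane proton pump.

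The libraries held 20527992 to 32262005 counts each, 26174388 in the median library. The 3 libraries with replicate number 1 had the lowest totals, 20527992 in WT, 21276029 in het and 22292647 in homo, against 24905135 to 32262005 in the other 6. These 3 libraries also stood apart in expression: with genotype in the model, 8.95% of the tested genes were called between number 1 and numbers 2 and 3, where a call needs an adjusted p-value below 0.05 and a fold change over 1.5 in the quasi-likelihood test of edgeR with Benjamini-Hochberg adjustment. The labels do not say what the number stands for, and the split by number follows an earlier result of these same data. WT replicate 3 stood apart in another way, with a summed level of 8 leukocyte genes of 1102 CPM (counts put on the same library size) against 181 to 388 CPM in the other 8 libraries and 65152 counts of the mucin gene Muc5b against 8828 to 17653. The defining markers of the MOE were high in all libraries, with olfactory marker protein (Omp) at 932 to 1114 RPKM (read density, counts per kilobase of exon after CPM scaling), and of 2 vomeronasal neuron genes, Trpc2 had 0 counts in every library and Vmn2r1 had 11 to 58.

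The level of each gene per length gave the order Ascl3, Foxi1, Cftr, Pou2f3, Avil, Trpm5, Il25 and Chat. Ascl3, a basic helix-loop-helix transcription factor of ionocytes and of gland and microvillous cell precursors, was the most abundant with 31.6 ± 5.16 RPKM (SD, n = 9 libraries of all genotypes), above 92.8% of the 19019 tested genes that have an exon length. Foxi1 followed with 10.8 ± 3.72 RPKM and Cftr with 3.85 ± 0.885 RPKM. All 3 ionocyte genes thus had higher mean levels than any of the 5 tuft cell genes, among which the master regulator Pou2f3 was highest with 2.66 ± 0.369 RPKM. Avil, an actin-bundling protein of microvilli that somatosensory neurons also make, had 1.78 ± 0.328 RPKM, and Trpm5, which some olfactory sensory neurons also make, had 0.835 ± 0.146 RPKM. Il25, the cytokine through which tuft cells act on innate lymphoid cells, had 0.115 ± 0.0846 RPKM. Chat, the enzyme that makes acetylcholine, had 0.0757 ± 0.0385 RPKM, below all but 6.62% of the genes. Between neighbours in this order, the libraries of Cftr (2.95 to 5.88 RPKM) overlapped those of Pou2f3 (2.11 to 3.24), those of Pou2f3 overlapped those of Avil (1.27 to 2.20), and those of Il25 (0 to 0.267) overlapped those of Chat (0.0313 to 0.1502). The other neighbours did not overlap, with Ascl3 at 24.7 to 41.6, Foxi1 at 7.42 to 15.9 and Trpm5 at 0.667 to 1.05 RPKM. Chat and Il25 had only 83 and 26 counts summed over the 9 libraries, so the tuft cell genes are read mainly from Pou2f3, Trpm5 and Avil. In whole tissue the counts do not show which cells made them. Slc18a3, the vesicular acetylcholine transporter that lies inside the Chat gene, had 3 counts in homo replicate 3 and 0 in the other 8 libraries.

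**Figure D1:**
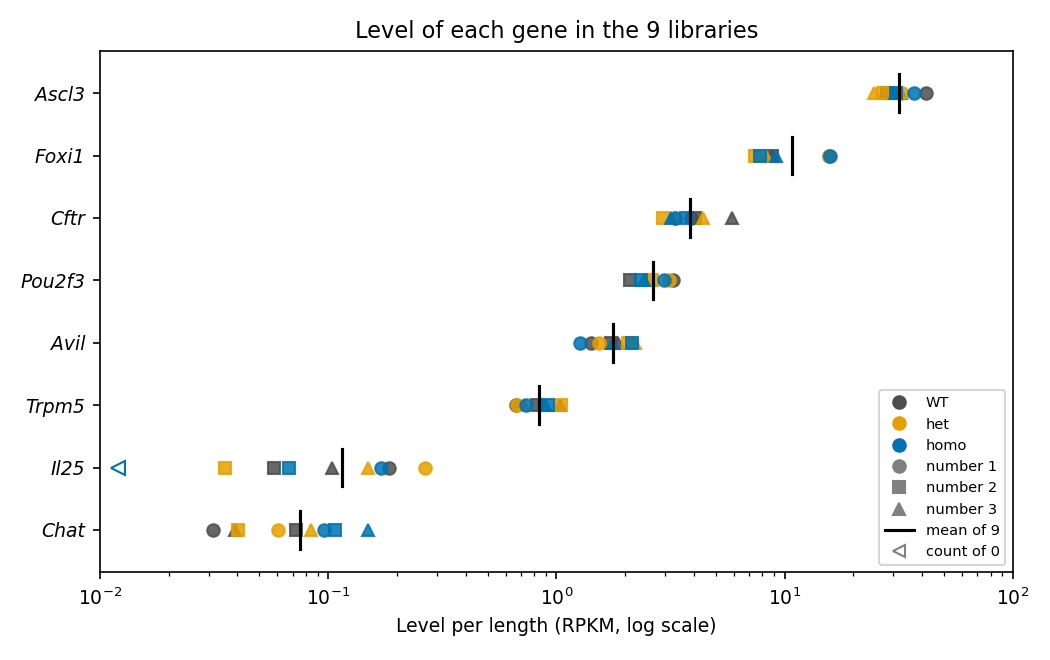
Level per length of each gene in the 9 libraries (x axis, RPKM on a log scale), coloured by genotype and shaped by replicate number, with the mean of 9 as a line. The 3 ionocyte genes Ascl3, Foxi1 and Cftr lie to the right of the tuft cell genes by their means, and Il25 and Chat lie near or below 0.267 RPKM in every library, with Il25 at 0 in homo replicate 3.

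The upstream sequences of the ionocyte genes are shown because Foxi1 is the factor this cell type depends on, and because the 3 genes did not move together in the libraries with number 1. Each is the 250 bases before the RefSeq gene start on the gene's own strand, 5′ to 3′, from RefSeq on GRCm38.p6, with every match to TATAAA on either strand in capitals. Foxi1 lies at chr11:34204338-34208089 on the minus strand, Ascl3 at chr7:109727465-109731726 on the minus strand and Cftr at chr6:18170687-18322768 on the plus strand, in GENCODE, whose start for Ascl3 lies a few bases downstream of the RefSeq start, and all are protein-coding. The upstream windows are chr11:34208090-34208339, chr7:109731733-109731982 and chr6:18170437-18170686.
Foxi1: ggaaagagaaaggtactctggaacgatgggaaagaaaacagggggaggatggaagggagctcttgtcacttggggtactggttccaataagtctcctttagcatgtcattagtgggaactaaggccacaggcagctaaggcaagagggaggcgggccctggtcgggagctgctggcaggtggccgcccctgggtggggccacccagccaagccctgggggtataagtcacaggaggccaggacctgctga
Ascl3: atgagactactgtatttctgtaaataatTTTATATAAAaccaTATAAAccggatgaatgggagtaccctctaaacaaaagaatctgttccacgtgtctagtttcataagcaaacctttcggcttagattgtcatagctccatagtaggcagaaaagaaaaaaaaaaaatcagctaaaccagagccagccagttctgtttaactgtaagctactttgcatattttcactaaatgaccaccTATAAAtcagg
Cftr: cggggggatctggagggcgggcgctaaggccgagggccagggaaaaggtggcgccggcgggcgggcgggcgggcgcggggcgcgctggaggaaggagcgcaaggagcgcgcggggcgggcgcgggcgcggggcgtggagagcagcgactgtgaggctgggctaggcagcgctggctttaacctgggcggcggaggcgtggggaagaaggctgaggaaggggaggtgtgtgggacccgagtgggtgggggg

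These sequences differed in base composition, with 58.8% GC for Foxi1, 34.8% for Ascl3 and 76.4% for Cftr against a median of 52.4% over 32851 mouse promoter windows of the same length. TATAAA matched 4 times in the Ascl3 window, including an overlapping pair that reads on opposite strands, and in none of the 5 other windows found for the 8 genes, while 12.4% of all windows held it. The forkhead motif GTAAACA was in none of the 6 windows, Foxi1 and Cftr included, and in 3.17% of all windows. The octamer ATGCAAAT, to which POU factors bind, was in none of the 6 and in 1.601% of all. The E-box CAGCTG was in the window of Chat alone and in 13% of all. Each motif was searched on both strands as these exact letters. Windows of Pou2f3 and Il25 were not used here.

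In the comparison of homo with WT, which asks whether removing both copies of the enhancer moved these cell type genes, 0 of the 8 genes were called by edgeR, against 0.0202% of all tested genes. At an unadjusted p-value below 0.05 there was 1 of 8, Chat, against 3.45% of all genes, and DESeq2 called 0 of 8. In het against WT 0 of 8 were called with a background of 0%, and in homo against het 0 of 8 with a background of 0.00506%. For both of these, 0 of 8 had an unadjusted p-value below 0.05, against 1.28% and 0.662% of all genes, and DESeq2 called 0. The fit behind these 3 comparisons had no term for replicate number. Adding a term for number 1 also called 0 of 8 in each. The 3 comparisons share libraries and are not independent of each other.

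**Figure D2:**
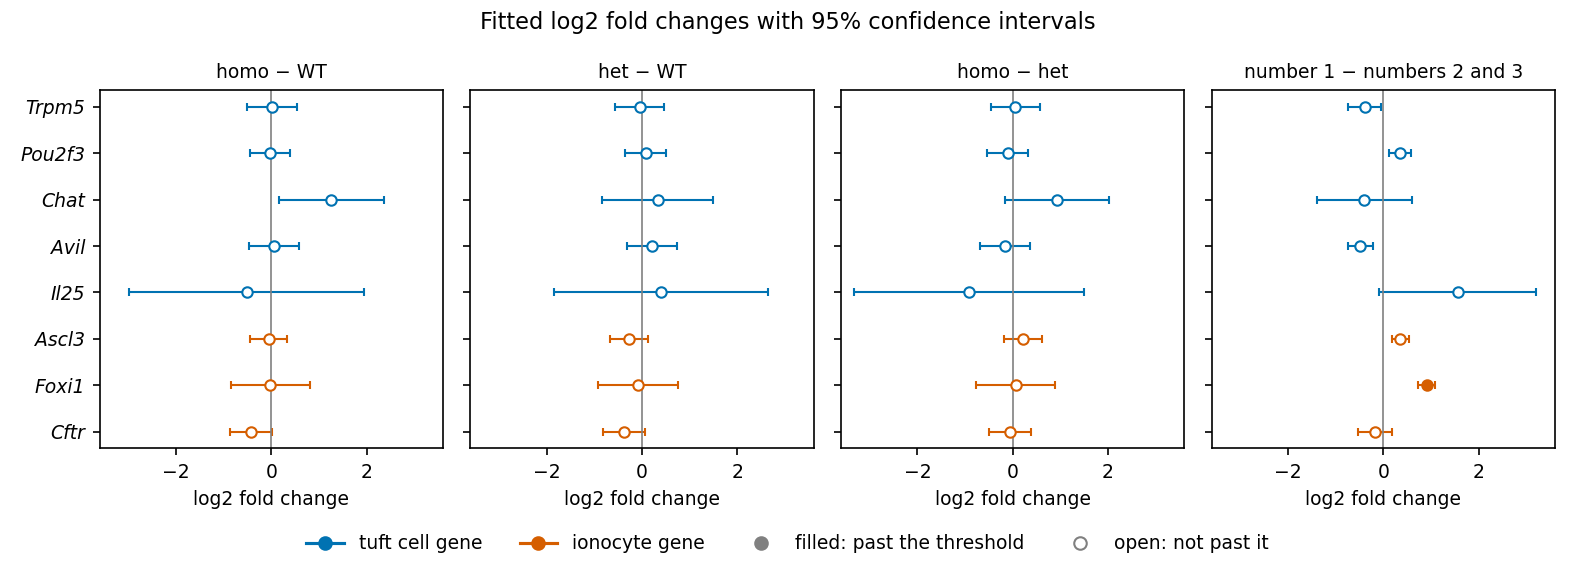
Fitted log2 fold changes (x axis) of the 8 genes with 95% confidence intervals in the 3 genotype comparisons and between replicate number 1 and numbers 2 and 3, with filled points past the threshold. Foxi1 in the comparison by number, at 0.91, is the single filled point, and the intervals of Il25 are the widest of the 8 in every panel.

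Trpm5 had normalized counts (raw counts divided by 1 size factor per library) of 108, 134 and 168 in WT replicates 1, 2 and 3, of 109, 169 and 118 in het and of 119, 148 and 143 in homo. The genotypes overlapped, and number 1 was the lowest library in each of them. Trpm5 lies at chr7:143069153-143094642 on the minus strand (ENSMUSG00000009246). Its log2 fold change was 0.01 for homo against WT, with a 95% confidence interval from −0.51 to 0.53 and an adjusted p of 1 in edgeR's quasi-likelihood test. It shares 220 exonic bases with Tssc4 on the opposite strand, and whether the counting used strand is not stated. A part of the Trpm5 count may therefore belong to Tssc4, and the size of that part was not tested.

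Pou2f3 (chr9:43123939-43210369, minus strand) had normalized counts of 253, 165 and 199 in WT, of 243, 205 and 202 in het and of 229, 183 and 188 in homo. Here number 1 was the highest library in each genotype, and the genotypes overlapped. The log2 fold change was −0.03 for homo against WT, with an interval from −0.46 to 0.39. In raw counts Pou2f3 stayed between 201 and 215 in all 9 libraries.

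Avil (chr10:127000709-127020994, plus strand) had normalized counts of 122, 149 and 160.2 in WT, of 133, 177 and 190.4 in het and of 108, 184 and 152 in homo. As for Trpm5, number 1 was the lowest library in each genotype. Homo differed from WT by 0.05 on the log2 scale, with an interval from −0.47 to 0.57. Avil shares 165 exonic bases with Tsfm on the opposite strand.

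Chat (chr14:32408203-32465989, minus strand) was the gene with the largest difference between homo and WT among the 8. It had raw counts of 3, 11 and 5 in WT, of 6, 5 and 10 in het and of 10, 14 and 19 in homo, which correspond to normalized counts of 3.72, 8.63 and 4.66, of 7.17, 4.77 and 10.1, and of 11.4, 12.7 and 17.8. All 3 homo libraries lay above all WT and all het libraries on the normalized scale. The log2 fold change of homo against WT was 1.26 (SE 0.49), a fold of 2.39 with an interval on the log2 scale from 0.15 to 2.36. The unadjusted p-value was 0.0274 and the adjusted p was 1 in edgeR's quasi-likelihood test, so that the difference did not pass the test over all genes, and its adjusted p lay between 0.675 and 1 over 16 alternatives. Homo against het gave 0.93 (SE 0.48) and het against WT 0.33 (SE 0.51), neither of them past the threshold, and the latter ranged from 0.025 without het replicate 3 to 0.78 without WT replicate 2. The ratio of homo to WT in CPM was 3.08 within number 1 and 2.30 over numbers 2 and 3. Leaving out 1 library at a time moved the log2 fold change of homo against WT between 1.05, without homo replicate 3, and 1.70, without WT replicate 2. A level of 3 counts in WT replicate 1 is at the floor that a count of 0 allows, so the fold is poorly bounded by depth. Homo replicate 3, the highest library, also held the 3 counts of Slc18a3 and 23 counts of the choline transporter Slc5a7, against 3 to 12 in the other 8 libraries. Chat is also made by cholinergic nerve fibres and neurons. Of genes that peripheral neurons make, Prph had 847 to 1031 raw counts in WT and 904 to 1040 in homo, and Isl1 had 309 to 485 in WT and 278 to 404 in homo, and neither was called by edgeR. The part of other cells in the Chat counts was not tested.

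Il25 (chr14:54932695-54935837, plus strand) had raw counts of 4, 2 and 3 in WT, of 6, 1 and 4 in het and of 4, 2 and 0 in homo. Most of its libraries lay at or near the floor of 3 counts, which is 0.0928 to 0.147 CPM. The 95% interval of homo against WT ran from −2.99 to 1.95 on the log2 scale, so that a difference of several fold in either direction was not detectable at this depth.

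Among the ionocyte genes, Ascl3 (109727465 to 109731726 on chromosome 7) had normalized counts of 736, 498 and 574 in WT, of 577, 477 and 439 in het and of 649.9, 540.4 and 537 in homo. The genotypes overlapped. Homo differed from WT by −0.06 (interval −0.45 to 0.33) and het from WT by −0.27 (interval −0.67 to 0.12) on the log2 scale. With 1 library left out, het against WT ranged from −0.40, without het replicate 1, to −0.09, without WT replicate 1. Foxi1 had normalized counts of 934, 528 and 525 in WT, of 935, 442 and 496 in het and of 939.5, 462 and 545 in homo. In every genotype 1 library, number 1, lay far above the other 2, and the number 1 libraries of the 3 genotypes lay within 934 to 939.5 of each other. The fit for homo against WT gave −0.02, with an interval from −0.86 to 0.81 that includes this spread within the genotypes. That fit had no term for replicate number. With a term for number 1 the value was −0.03, with an adjusted p of 0.948 in edgeR's quasi-likelihood test.

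Cftr had normalized counts of 765, 797 and 1153 in WT, of 650.2, 578 and 864 in het and of 649, 723 and 623 in homo. All 3 homo libraries lay below all 3 WT libraries, while het overlapped WT. The log2 fold change of homo against WT was −0.44 (SE 0.20, interval −0.88 to 0.0022), a fold of 0.738, with an unadjusted p-value of 0.0512 and an adjusted p of 1 in edgeR's quasi-likelihood test. It did not pass the threshold. Het against WT gave −0.38 (SE 0.20), from −0.56 without het replicate 3 to −0.17 without WT replicate 3, and homo against het −0.06 (SE 0.20). Without WT replicate 3, the library with the high leukocyte and Muc5b levels and the highest Cftr value, homo against WT was −0.23, the smallest value over the libraries left out. Within number 1 the ratio of homo to WT was 0.852 and over numbers 2 and 3 it was 0.694. The part of the leukocyte and mucin signal in the Cftr values was not tested. Cftr shares 129 exonic bases with the antisense gene Gm15592.

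Among the 8 genes 2, Chat and Cftr, had libraries of homo and WT that did not overlap in CPM, against a background of 5.68% of all tested genes. In homo against het it was 1 of 8, Chat, against 4.15%, and in het against WT it was 0 of 8 against 3.95%. The median log2 fold change of homo against WT was 0.01 over the 5 tuft cell genes and −0.06 over the 3 ionocyte genes, beside 0.00 over all genes tested.

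**Figure D3:**
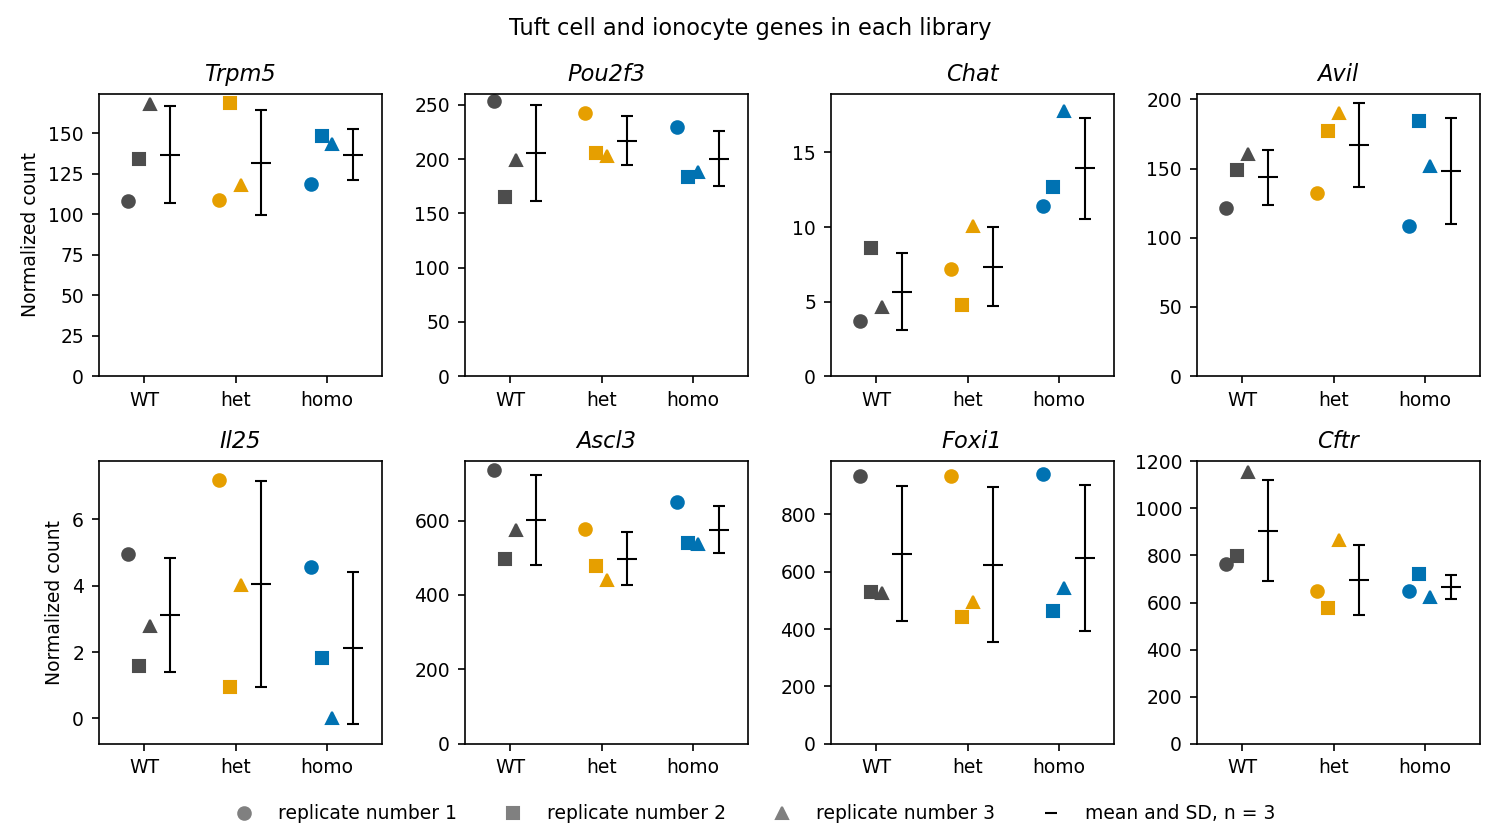
Normalized counts (y axis) of each gene in every library, by genotype on the x axis, with point shape for replicate number and mean ± SD of the 3 libraries beside them. Foxi1 at number 1 lies between 934 and 939.5 in the 3 genotypes while its other 6 libraries lie between 442 and 545, and Chat in homo (11.4 to 17.8) lies above WT (3.72 to 8.63).

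The comparison of replicate number 1 with numbers 2 and 3, with genotype in the model, held the only call among the 8 genes. Foxi1 was 1.88 times as high in number 1 (log2 fold change 0.91, SE 0.080, interval 0.73 to 1.09, adjusted p = 1.95e-04 in edgeR's quasi-likelihood test) and was the 1 of 8 genes called, against 8.95% of all tested genes. DESeq2 also called 1 of 8. The ratio was 1.78 within WT, 2.00 within het and 1.87 within homo, in CPM. Each of these ratios rests on 1 library with number 1, so whether the ratio differs between genotypes cannot be told here. Over 13 alternatives the log2 fold change of Foxi1 stayed between 0.87 and 0.96, with adjusted p-values from 8.94e-18 to 0.00471. Foxi1 was also separated by number in the raw counts, with 753, 782 and 824 in number 1 although these libraries were the shallowest, against 463 to 673 in the others.

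The other ionocyte genes did not follow Foxi1 to the same extent. Ascl3 was higher in number 1 by 0.36 (SE 0.079, adjusted p = 0.00926), below the 1.5-fold limit. Cftr differed by −0.18 (SE 0.16, adjusted p = 0.421), with an interval from −0.53 to 0.18. Raw counts of Ascl3 overlapped, with 483 to 593 in number 1 and 436 to 635 in the others, so its separation exists only after scaling to depth. The ratio of Foxi1 to Cftr within a library does not depend on scaling. It was 1.22, 1.44 and 1.45 in the number 1 libraries of WT, het and homo and 0.456 to 0.874 in the other 6. The ratio of Foxi1 to Ascl3 was 1.27, 1.62 and 1.45 against 0.855 to 1.13. Both ratios separated the number 1 libraries without overlap, which shows that the 3 ionocyte genes changed unequally between the libraries.

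Among the tuft cell genes the directions were mixed. Pou2f3 was higher in number 1 by 0.35 (SE 0.10, adjusted p = 0.0305) and Avil was at −0.48 (SE 0.12, adjusted p = 0.0163), lower in number 1, both below the 1.5-fold limit. Raw counts of Pou2f3 overlapped, with 201 to 204 in number 1 and 201 to 215 in the others, so its separation exists only after scaling to depth. Trpm5 was at −0.39 (SE 0.15, adjusted p = 0.0813), Chat at −0.39 (SE 0.44, adjusted p = 0.525) and Il25 at 1.56 (SE 0.73, adjusted p = 0.121), none of which passed. The ratio of Pou2f3 to Trpm5 counts within a library was 2.34, 2.23 and 1.93 in number 1 and 1.19 to 1.72 in the others. The counts of these genes thus changed unequally between the libraries. Which cells made them was not tested. The ratio of Avil to Trpm5 overlapped, with 0.913 to 1.22 in number 1 and 0.956 to 1.62 in the others. In all, 4 of the 8 genes (Pou2f3, Avil, Ascl3 and Foxi1) had an adjusted p below 0.05 at any fold, against 31.6% of all tested genes. The libraries of 5 of the 8, these 4 and Il25, did not overlap in CPM, against 34%. Over 13 alternatives the adjusted p reached 0.139 for Pou2f3, 0.111 for Avil and 0.0520 for Ascl3.

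**Figure D4:**
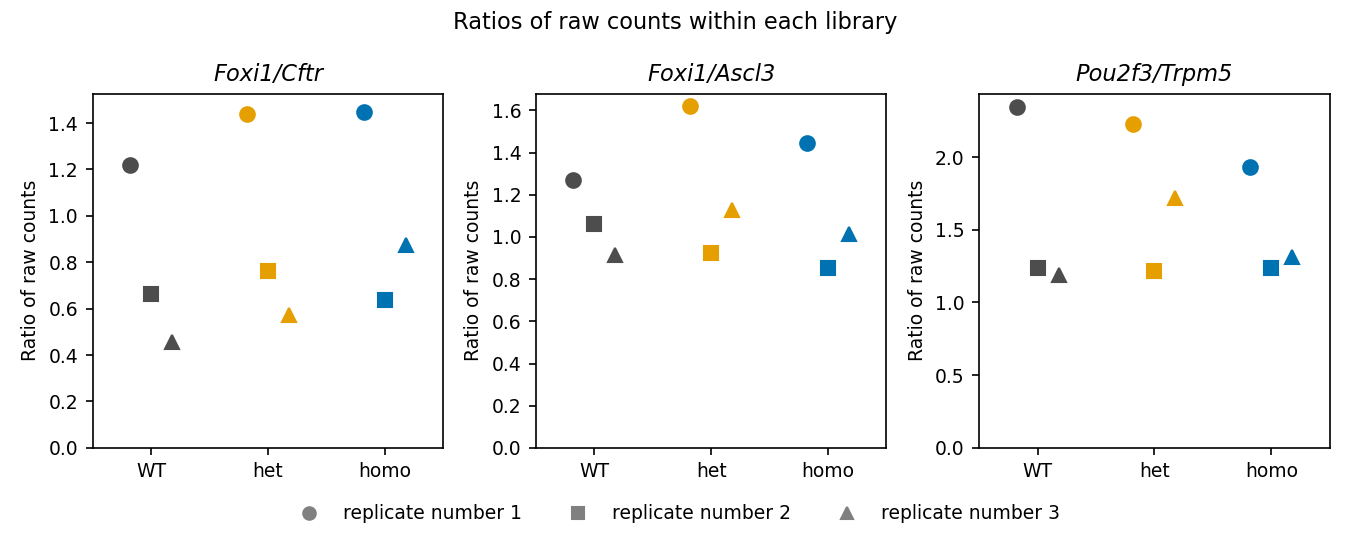
Ratio of raw counts of 2 genes within each library (y axis), by genotype on the x axis and shaped by replicate number. The circles of number 1 lie above the other libraries in the 3 ratios drawn (Avil to Trpm5, which overlapped, is not drawn), with Foxi1 to Cftr at 1.22 to 1.45 against 0.456 to 0.874.

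Markers of other cell types also differed by number, in a comparison where 8.95% of all tested genes were called. Of 8 leukocyte genes 5 were called lower in number 1 (Cd79a, Lyz2, Ptprc, S100a8 and S100a9), while Cd68 was at 0.79 (adjusted p = 0.0503) and Csf1r at 0.16, in the other direction and not called, and the list summed to 181 to 187 CPM in number 1 against 250.2 to 1102 CPM in the others. Of 6 genes of ciliated cells 2 were higher, Foxj1 by 1.01 and Dnah5 by 0.84 on the log2 scale, while Rsph1 was at 0.46, Dynlrb2 at 0.31, Tekt1 at −0.16 and Ccdc39 at −0.20 and were not called, with list sums of 640.3 to 710.3 CPM against 456 to 604 CPM. Of 3 basal cell genes 1 was called higher, Krt5 by 1.01, while Trp63 at 0.45 and Krt14 at 0.33 lay in the same direction and were not called. The basal cell sums were 119 to 163 CPM against 72.4 to 101 CPM. Of 5 gland genes Sox10 was called higher and Obp1a was called lower, and the sums were 3596 to 3776 CPM against 3741 to 7619 CPM. None of the 6 mature neuron genes and none of the 5 sustentacular genes was called by edgeR, with 1 of each at an unadjusted p-value below 0.05, and the neuron sums were 5898 to 6302 CPM against 6015 to 6912 CPM. The part of these cell types and of depth in the values of the 8 genes was not tested. In the 3 genotype comparisons 0 genes of all these lists were called by edgeR, with 1 basal cell gene at an unadjusted p-value below 0.05 in homo against WT.

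The wider set of tuft cell genes behaved no more uniformly. A list of 30 genes was used, which holds transcription factors, taste transduction components, enzymes of eicosanoid synthesis, cholinergic genes and others, of which 24 could be tested. By edgeR 0 of the 24 were called in any genotype comparison and 0 had an unadjusted p-value below 0.05, and DESeq2 also called 0. The medians were −0.10 for homo against WT, −0.12 for het against WT and −0.05 for homo against het, beside 0.00, −0.01 and 0.00 over all genes. Between number 1 and the others 3 of 24 were called, against 8.95% of all tested genes, and the median was −0.11 beside −0.03 over all genes. Gng13, a G protein gamma subunit that olfactory neurons also make, was higher by 1.32 (SE 0.11, adjusted p = 1.82e-04) with 4194, 4586 and 4562 raw counts in number 1 against 1628 to 2962 in the others. Its mean level over all libraries was 164 RPKM, beside 184 for the mature neuron gene Gnal and 0.835 for Trpm5. The part of neurons in the Gng13 values was not tested. Plcb2, the phospholipase of the taste cascade, was lower at −0.69 (SE 0.21, adjusted p = 0.0389). Spib, a transcription factor of tuft cells that B cells also make, was lower at −1.497 (SE 0.37, adjusted p = 0.0185), and its libraries overlapped. Without WT replicate 1 or without homo replicate 1 the count of 3 fell to 1, Gng13, and without WT replicate 2 it rose to 6. Over the 9 libraries left out in turn, Gng13 was called each time, Spib 6 times and Plcb2 1 time. Spib is also a leukocyte gene, and the leukocyte list was also lower in number 1. Its part in the Spib values was not tested.

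In a wider ionocyte list of 17 genes, 16 were tested and 0 were called by edgeR in any of the 4 comparisons. Unadjusted p-values below 0.05 were found for 1 gene in homo against WT, 0 in both other genotype comparisons and 9 of 16 in the comparison by number, where 42.6% of all tested genes had one, and DESeq2 called 0 in each. The medians were −0.07, −0.07 and −0.03 in homo against WT, het against WT and homo against het, and 0.17 by number. The most abundant of these genes per length were subunits of the vacuolar proton pump, which in the plasma membrane of ionocytes acidifies the space outside the cell. Atp6v1c2 had 41.0 RPKM, Atp6v1b1 26.0, Atp6v0a4 12.1 and Atp6v0d2 11.5, all above the mean of Foxi1. These 4 subunits differed between homo and WT by −0.09, 0.07, 0.17 and 0.03 on the log2 scale, and between number 1 and the others by −0.23, 0.38, −0.30 and 0.00. The 1 gene at an unadjusted p-value below 0.05 in homo against WT was Tfcp2l1, a transcription factor of ionocytes and of kidney intercalated cells, which was singled out after its values were seen. Its raw counts were 2401, 2840 and 2214 in WT, 1950, 1753 and 2065 in het and 1607, 1584 and 1507 in homo. The log2 fold change of homo against WT was −0.63 (SE 0.18) and the libraries of homo and WT did not overlap in CPM, but the adjusted p was 1 in edgeR's quasi-likelihood test. Tfcp2l1 is also made in gland ducts, and the 5 gland genes had log2 fold changes from −1.12 to −0.10 in homo against WT, none past the threshold. Their part was not tested.

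**Figure D5:**
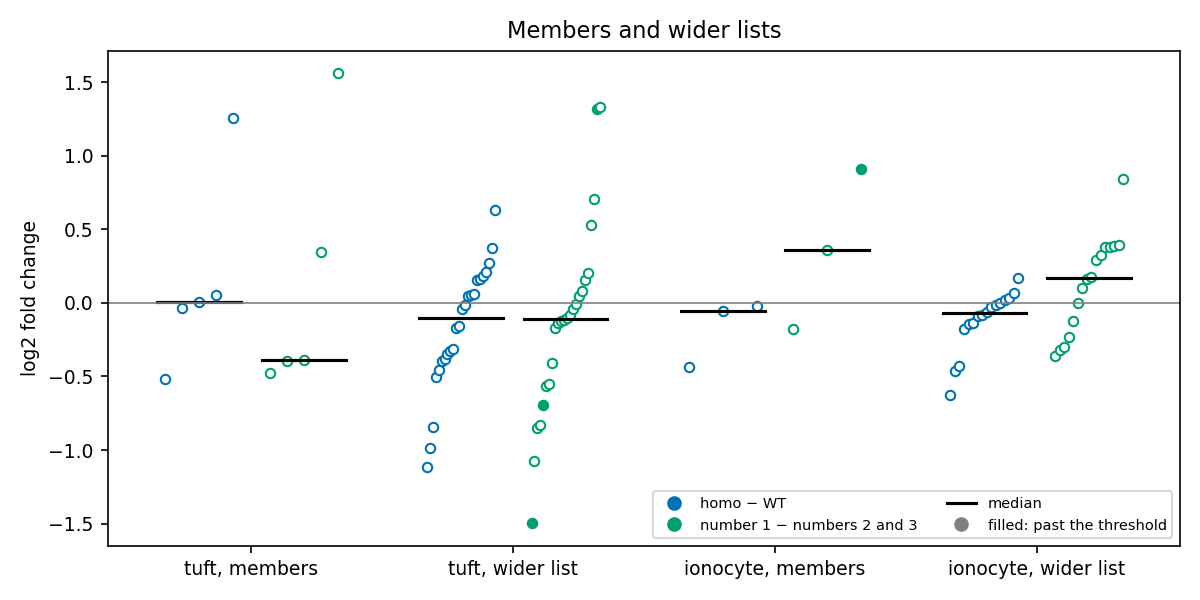
Log2 fold changes (y axis) of the members and of the wider lists of tuft cell and ionocyte genes on the x axis, for homo against WT and for number 1 against numbers 2 and 3, each point 1 gene, with lines at the medians and filled points past the threshold. In homo against WT no point is filled, and by number Foxi1 and the 3 wider tuft cell genes Gng13, Plcb2 and Spib are.

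The genes whose pattern over the 9 libraries was most like that of Foxi1, by Pearson correlation of log2(CPM + 1) over 16155 other genes, were Mrps5 (0.993), Tsg101 (0.989), P4ha3 (0.988), Csnk2a2 (0.987) and Ube2e2 (0.987). Pou2f3 ranked 2435 (0.82), Ascl3 2627 (0.80), Cftr 8981 (−0.19), Trpm5 13594 (−0.77) and Avil 15544 (−0.92). For Trpm5 the most alike were Htra2 (0.958), Vps51 (0.951), Spns3 (0.949), Arfip2 (0.946) and Mllt6 (0.945), while Avil ranked 2686 (0.58), Cftr 7185 (0.15), Ascl3 11695 (−0.40), Pou2f3 13939 (−0.59) and Foxi1 15740 (−0.77). Neither gene thus had another of the 8 among its 5 closest genes. The 9 libraries share the split by number and its difference in depth, so the values describe these libraries only. Over the 6 libraries of numbers 2 and 3 the correlation of Foxi1 was 0.37 with Ascl3, −0.40 with Pou2f3, −0.78 with Avil and 0.915 with Mrps5. It was 0.680 (P4ha3) to 0.790 (Tsg101) with the other genes named as most like Foxi1. That of Trpm5 was 0.31 with Pou2f3, −0.14 with Avil and 0.906 with Htra2, and 0.907 (Arfip2) to 0.948 (Mllt6) with its other named genes. These most alike genes were picked over the 9 libraries, which include the 6, so their values over the 6 are no separate check. The sign differed between 9 and 6 libraries for Foxi1 with Pou2f3 and with Cftr (0.40 over 6), and for Trpm5 with Pou2f3, Avil, Ascl3 (0.62 over 6) and Cftr (−0.06 over 6). Chat and Il25 had a mean below 1 CPM and were not ranked.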

How the data were processed

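RNA from whole MOE was polyA-selected and made into strand-specific libraries, 3 per genotype, each from a separate mouse. Per the study's methods and processing notes, reads were trimmed with Trimmomatic 0.36, mapped to mm10 (GRCm38) with HISAT2 2.1.0 and counted with featureCounts of Subread 1.6.2. Annotation release, strand setting and handling of reads with several hits are not given in the sources used here. The authors deposited raw counts per gene symbol for 24421 genes and, as a signal, normalized counts for 23129 genes, made with DESeq2 1.20.0 as raw count over 1 size factor per library (0.806 to 1.28).

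Groups and replicate numbers were taken from the sample titles. Raw counts were tested in R 4.3.3 with edgeR 4.0.16 (limma 3.58.1), quasi-likelihood F test, TMM normalization, all 9 libraries in 1 fit, genes with at least 10 summed counts (19775), Benjamini-Hochberg adjustment over all of them, two-sided. A call needed an adjusted p below 0.05 and a fold over 1.5. The coefficient of variation between libraries was 23.3%. The p-values set the difference between groups against the spread between these libraries. In the genotype fit this spread includes the difference by replicate number. SEs and 95% intervals came from the model. The test, but not the intervals, was tested on simulated data, where the genotype comparison held no difference by replicate number. The comparison by number used replicate number 1 against 2 and 3 beside genotype. RPKM used GENCODE M21 exon lengths, found for 96.2% of the tested genes. A floor of 3 counts was 0.0928 to 0.147 CPM, for counting error only. Promoter windows came from RefSeq on GRCm38.p6 and matched 6 of the 8 genes.

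The members, the gene lists and the tests were chosen with earlier results of these data known. The genes named were the 8 members, wider-list genes called in a comparison or else the 4 highest per length, and the 5 genes most like Trpm5 and Foxi1. Replicate numbers were checked for pairing by correlating deviations from the group mean over 16156 genes. These were 0.689, 0.468 and 0.573 for WT with het, 0.822, 0.387 and 0.230 for het with homo, and 0.541, 0.345 and −0.083 for WT with homo. All values passed a limit of 0.1 for het with WT and het with homo, but not for WT with homo. Deviations within a group cancel out for each gene, so the split of number 1 alone moves the other numbers alike in every genotype. The check therefore cannot tell whether the numbers pair libraries beyond that split, and no pairing was concluded. Some listed genes are not reported here. Alternatives were no filter, edgeR's own filter, size factors in place of TMM, a replicate block, a term for number 1, only the genotypes compared, DESeq2 1.42.0 and each library left out.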

Additional observations from a re-analysis of the deposited data

How the results depend on the processing

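Of 667 values recomputed for 44 results, 631 kept their direction and side of the threshold, 33 changed sign and 3 counts moved by over 1.5 times. The replicate block called 0 of 8 members in every genotype comparison, as did all other alternatives, and it changed no call of the wider lists. With it, homo against WT gave 1.24 for Chat and −0.41 for Cftr, both with an adjusted p of 0.725 in edgeR's quasi-likelihood test. Over all tested genes it called 3 in place of 4 in homo against WT and 3 in place of 1 in homo against het. Foxi1 was called by number in all 13 alternatives. Il25 could not be tested under edgeR's own filter. The sign changes were of log2 fold changes that were not called, and the cause was not tested. For Trpm5 in homo against WT the values were −0.00014871 with size factors and −0.00122111 with DESeq2. With 1 library left out, homo against WT ranged from −0.119 to 0.171 for Trpm5, −0.172 to 0.156 for Pou2f3, −0.143 to 0.235 for Avil, −1.56 to 0.0751 for Il25, −0.182 to 0.125 for Ascl3 and −0.388 to 0.320 for Foxi1. Het against WT ranged from −0.259 to 0.114 for Trpm5, −0.0601 to 0.264 for Pou2f3, −0.255 to 0.886 for Il25 and −0.499 to 0.257 for Foxi1. Homo against het ranged from −0.0595 to 0.274 for Trpm5, −0.358 to 0.0123 for Avil, −0.307 to 0.478 for Foxi1 and −0.184 to 0.1198 for Cftr. The count of wider tuft cell genes called by number ranged from 1 to 6. Depth limits Chat and Il25, with 83 and 26 counts in all.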
